A study of Mus musculus with 8 samples.

Results

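The genes of the mitochondrial genome were examined in hearts of mouse embryos. They were chosen as all genes whose chromosome in the deposited count tables is MT, which gave 35 of the 49315 genes. Of these, 13 encode proteins and 22 encode tRNAs. The 2 mitochondrial rRNA genes were not analysed here. The study set male hearts beside female hearts of the inbred strain C57BL/6 at embryonic day 9.5, with 4 libraries labelled Female and 4 labelled Male. All embryos shared strain, tissue and age, and the labels name no treatment, transgene or mutant allele in either group. The embryos were sexed by their genotype at Sry, the Y-linked testis-determining gene, from tissue outside the heart. Pooling of hearts and shared litters are not mentioned in the labels, so a p-value here measures only the spread between the libraries, which may in part be technical. Values of single libraries are given in the order of replicates 1 to 4 of each sex.

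Mitochondria carry a small circular genome of their own. Its protein genes all encode subunits of the respiratory chain and of ATP synthase, and its tRNAs serve the translation of those subunits inside the organelle. Both strands are transcribed as long precursors, from which tRNAs between the mRNAs are cut out, so that the mature transcripts of a strand start from a common precursor and can then differ in stability. Pieces of the mitochondrial genome have also been copied into the nuclear chromosomes during evolution, and such copies are usually pseudogenes.

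Library totals ranged from 20105913 to 51134291 counts. Male replicate 2 stood apart from the other male libraries. Its chi-square per gene against them was 112 to 173, where the other male pairs gave 7.29 to 17.2, and its TMM scaling factor of 0.864 was the lowest of the 8. Female replicate 4 stood apart from the other females too, though less far. Against them it gave 50.1 to 78.8 on this measure, compared with 20.1 to 21.8 among the other females, and its TMM factor of 1.07 was the highest. Values without male replicate 2, the farther of the 2, are given beside the results it moves most. All 14 sarcomere genes checked, such as those for cardiac myosin and troponin, had counts in every library, with a summed level of 52502 to 71512 counts per 1000000 (CPM). Markers of other cells were present too. All 8 endothelial markers (394 to 695 CPM summed), all 11 erythroid markers (4718 to 12403 CPM) and 11 of 12 foregut markers (242 to 481 CPM) had counts in every library, and so did 5 of 8 hepatic and yolk sac markers and 6 of 8 neural crest markers.

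The 35 mitochondrial genes analysed, which do not include the 2 rRNA genes, took about 1 count in every 100. Their share of all counts was 0.999%, 1.31%, 1.05% and 1.72% in the female libraries and 1.41%, 0.707%, 1.58% and 1.30% in the male ones. The mean share was 1.27% ± 0.327 (SD, n = 4) in females and 1.25% ± 0.380 (SD, n = 4) in males, and the ranges of the sexes overlapped. Male replicate 2 was the lowest and female replicate 4 the highest of the 8, 2.43-fold apart. Counting error is small beside this spread. The 95% Wilson interval of male replicate 2 runs from 0.704% to 0.709%, and it covers counting error only, since reads are not independent molecules. Without male replicate 2 the male mean was 1.43% ± 0.143 (SD, n = 3).

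**Figure D1:**
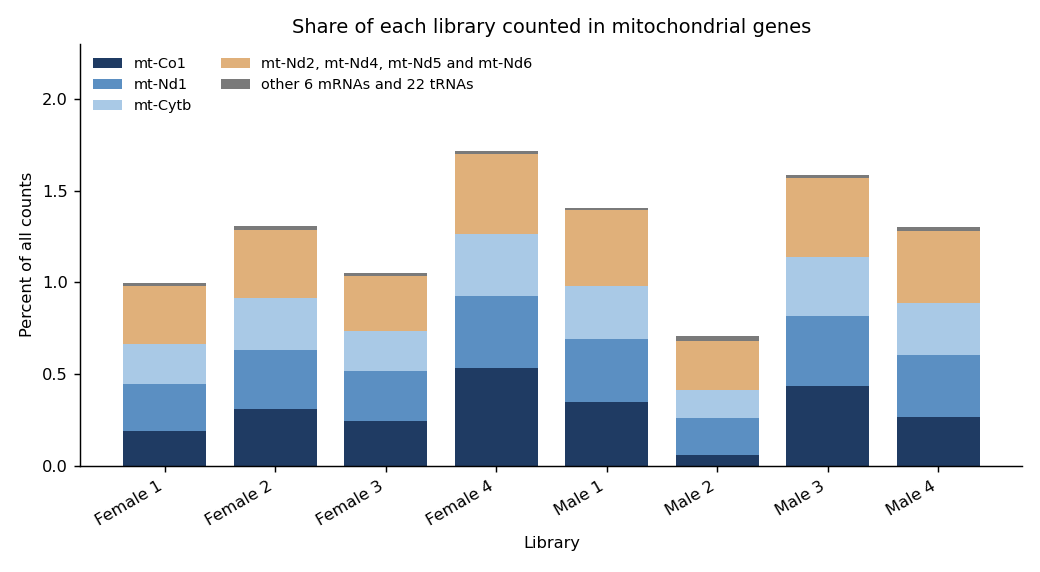
Percent of all counts (y axis) taken by mitochondrial genes in each of the 8 libraries (x axis), stacked by transcript. mt-Co1, the dark part at the base, varies most, and the 6 lowest mRNAs with the 22 tRNAs form only the thin grey top of each bar.

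The share was made up of a few transcripts. Over the 8 libraries the mitochondrial genes had 3520640 counts. The 7 highest mRNAs (mt-Nd1, mt-Cytb, mt-Co1, mt-Nd6, mt-Nd2, mt-Nd4 and mt-Nd5) held between 96.5% and 99.2% of them in every library. The other 6 mRNAs together had 17253 counts and the 22 tRNA genes 32114. Levels are compared between genes below as CPM per kilobase of the tabulated gene length. On this scale the highest mRNA as counted, mt-Nd1, stood 5858-fold above the lowest, mt-Atp8, which had only 35 counts over the 8 libraries.

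Complex I, which takes electrons from NADH into the respiratory chain, has 7 subunits in this genome. Their mRNAs held 48.7% to 69.8% of the mitochondrial mRNA counts, and at most 58.5% without male replicate 2. These are shares of reads as counted. mt-Co2, mt-Co3, mt-Atp6 and, in this complex, mt-Nd3 and mt-Nd4l are matched almost wholly by nuclear transcripts, as described below. The part of the copies in these shares was not tested. mt-Nd1 had the highest level of the 13 mRNAs in all 8 libraries, at 3286 ± 678 CPM per kilobase (SD, n = 8). In CPM it was 2562, 3212, 2757 and 3911 in the female libraries and 3445, 2042, 3853 and 3378 in the male ones, so both sexes covered much the same range and male replicate 2 was lowest. The next subunits followed at 1007 ± 252 for mt-Nd2, 794 ± 206 for mt-Nd4 and 414 ± 52.1 for mt-Nd5 CPM per kilobase. On this scale mt-Nd2 was above mt-Nd4, and mt-Nd4 above mt-Nd5, in 8 of 8 libraries. The order of mt-Nd2 and mt-Nd4 depends on the length used. The same counts were also divided by the 50-base windows with no match in an annotated nuclear transcript, described below. mt-Nd4 was then above mt-Nd2 in 8 of 8 libraries. The change comes from the divisor, 502 windows for mt-Nd4 and 908 for mt-Nd2, which is the same in every library. mt-Nd3 lay well below these at 139 ± 43.4, and mt-Nd4l, whose reading frame runs into that of mt-Nd4, at 12.7 ± 2.31.

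mt-Nd6 is the single mRNA gene on the minus strand (MT:13552-14070, GRCm38). Its level was 1497 ± 173 CPM per kilobase, above mt-Nd2 in 8 of 8 libraries. In CPM it was 814, 761, 611 and 760 in the female libraries and 827, 744, 770 and 930 in the male ones. Its coefficient of variation, 11.6%, was the lowest of the mRNAs. mt-Nd5 on the opposite strand was next at 12.6%. These 2 genes overlap tail to tail by 14 bases. The last 30 bases of each are shown with the shared bases in capitals (mt-Nd5 at MT:13536-13565 on the plus strand, mt-Nd6 at MT:13552-13581 on the minus strand, GRCm38):
mt-Nd5: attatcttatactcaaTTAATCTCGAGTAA
mt-Nd6: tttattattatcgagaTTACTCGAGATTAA
No strand-marking kit is named in the labels and the strand setting of the counting was not given in the sources used here, so reads of the minus strand gene and reads antisense to it may not be told apart.

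Complex III has 1 subunit in this genome, cytochrome b. mt-Cytb (MT:14145-15288) had 2281 ± 548 CPM per kilobase, second to mt-Nd1. It was 2170, 2811, 2129 and 3386 CPM in the female libraries and 2885, 1500, 3196 and 2797 CPM in the male ones. The pattern over libraries was that of mt-Nd1. The ratio of mt-Cytb to mt-Nd1 counts stayed between 0.734 and 0.875 over the 8 libraries.

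Complex IV, cytochrome c oxidase, passes electrons to oxygen, and its 3 core subunits come from mt-Co1, mt-Co2 and mt-Co3. The levels counted for these differed most among themselves. mt-Co1 (MT:5328-6872) was in place 3 of the 13 mRNAs at 1930 ± 948 CPM per kilobase, while mt-Co3 had 8.24 ± 2.01 and mt-Co2 2.37 ± 0.469. Of the 50-base windows, 100% for mt-Co2, 99.9% for mt-Co3 and 51.1% for mt-Co1 also occur in a nuclear transcript, as described below. The part of the copies in these differences was not tested. The mt-Co1 level was 1910, 3114, 2436 and 5351 CPM in the female libraries and 3457, 573, 4334 and 2683 CPM in the male ones. It was the most variable of the 7 high mRNAs, with a 9.34-fold range over 8 libraries that fell to 2.80-fold without male replicate 2. The ratio of mt-Co1 to mt-Nd1 counts was 0.281 in male replicate 2 and lay between 0.746 and 1.37 in the other 7. Its place in the order was therefore not fixed. mt-Cytb was above mt-Co1 in 6 of 8 libraries, mt-Co1 was above mt-Nd6 in 5 of 8, and in male replicate 2 mt-Co1 was in place 7. Without mt-Co1 the mitochondrial share of the libraries ran from 0.650% to 1.18%.

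ATP synthase has 2 subunits in this genome, both in its membrane part. The levels counted for their mRNAs were the lowest of all 13, with 1.98 ± 0.345 CPM per kilobase for mt-Atp6 and 0.561 ± 0.469 for mt-Atp8. For mt-Atp6, 99.5% of 50-base windows also occur in a nuclear transcript, and mt-Atp8 lies in the same copied stretch, as described below. The part of the copies in these low counts was not tested. mt-Co2 was above mt-Atp6 in 7 of 8 libraries, so those 2 neighbours in the order were close. Only 381 counts fell on mt-Atp6 and 35 on mt-Atp8 over the 8 libraries. mt-Atp8 had 0.0807, 0.0996, 0.0995 and 0.332 CPM in the female libraries and 0.107, 0.0251, 0.138 and 0.0338 CPM in the male ones, so single libraries rest on few counts. The genes share 43 bases in different reading frames. The end of mt-Atp8 (MT:7915-7969) and the start of mt-Atp6 (MT:7927-7981), both on the plus strand, are shown with the shared bases in capitals:
mt-Atp8: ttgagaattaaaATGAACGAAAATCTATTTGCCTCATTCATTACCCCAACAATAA
mt-Atp6: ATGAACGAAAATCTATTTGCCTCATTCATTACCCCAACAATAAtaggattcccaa
A read inside the shared bases fits both genes, and how the counting treated such reads was not given in the sources used here.

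**Figure D2:**
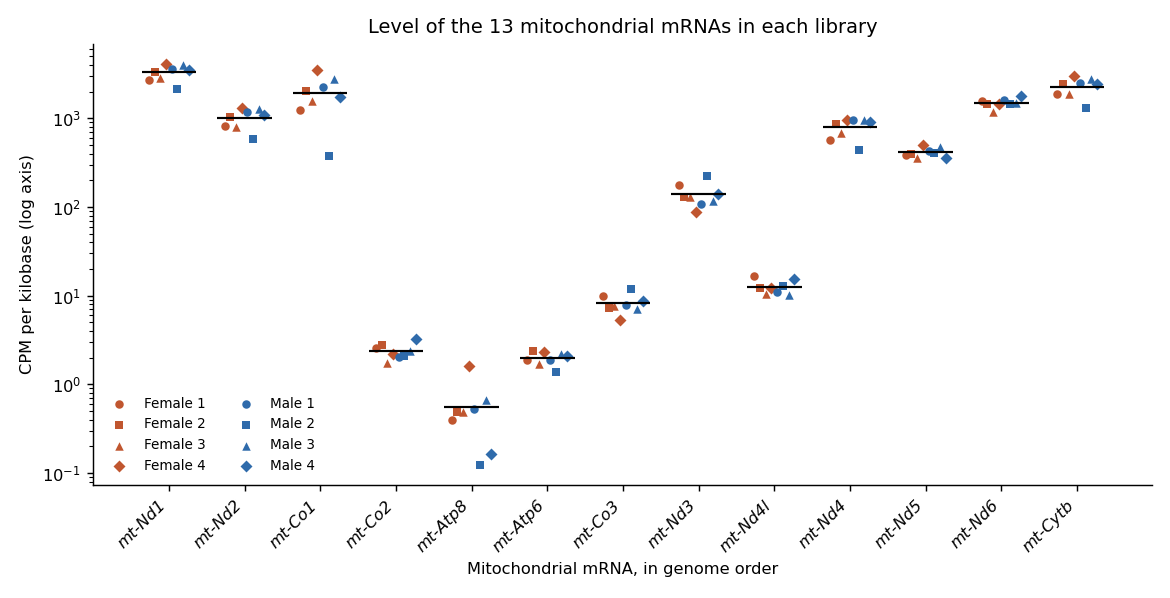
Level of each mitochondrial mRNA in CPM per kilobase (log axis) in the 8 libraries, with genes in genome order and black lines at the mean. The 6 genes from mt-Co2 to mt-Nd4l lie below the genes on either side of them, from 139 for mt-Nd3 down to 0.561 for mt-Atp8.

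The 6 lowest mRNAs were neighbours in the genome. mt-Co2, mt-Atp8, mt-Atp6, mt-Co3, mt-Nd3 and mt-Nd4l follow each other from base 7013 to base 10173, while the genes before and after them, mt-Co1 and mt-Nd4, were among the 7 highest. This stretch was compared with annotated mouse transcripts by exact matches of 50-base windows on either strand. Of the windows of each gene, a nuclear transcript matched 100% for mt-Co2, 99.9% for mt-Co3, 99.5% for mt-Atp6, 98.8% for mt-Nd4l and 97.99% for mt-Nd3. The share was 62.2% for mt-Nd4 and 51.1% for mt-Co1, 8.19% for mt-Nd2 and 7.61% for mt-Nd5. No window was matched for mt-Nd1, mt-Cytb, mt-Nd6 or mt-Atp8.

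Most matches led to 1 place on chromosome 1. There, 7 annotated pseudogenes on the minus strand, between bases 24611535 and 24616197 (GRCm38), copy the mitochondrial bases from about 6381 to 11042 in the same order, with offsets within 1 base of each other. Without gaps, Gm28661 was identical to mt-Co2 over 681 of 681 bases, Gm10925 to mt-Atp6 over 678 of 678, Gm28437 to mt-Co3 over 783 of 783 and Gm10222 to mt-Nd4l over 294 of 294. Gm28439 was identical to 876 of 876 bases of mt-Nd4, Gm28438 to 344 of 345 bases of mt-Nd3 and Gm29216 to 486 of 492 bases of mt-Co1. Where mt-Atp8 would lie in this copy no transcript is annotated among those searched, so the count of 0 matched windows for mt-Atp8 does not describe the genome.

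The start of mt-Co2 (MT:7013-7072) shows how close these copies are. It is set beside the same 60 bases of the chromosome 1 copy Gm28661 (chr1:24615506-24615565, minus strand) and of another copy on chromosome 2, Gm13341 (chr2:22587903-22587962, minus strand). Capitals mark the bases of Gm13341 that differ from mt-Co2, which are C25T and G57A counted from the first base of mt-Co2:
mt-Co2: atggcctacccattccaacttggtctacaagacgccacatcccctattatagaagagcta
Gm28661: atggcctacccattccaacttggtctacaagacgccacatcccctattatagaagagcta
Gm13341: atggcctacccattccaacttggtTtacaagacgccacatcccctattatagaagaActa
A read from these bases fits mt-Co2 and Gm28661 equally well, and 2 bases tell it from Gm13341. For mt-Nd3 (MT:9459-9488) and its copy Gm28438 (chr1:24613090-24613119, minus strand) the single difference, T3C from the first base of mt-Nd3, is in capitals:
mt-Nd3: atTaacctgtacactgttatcttcattaat
Gm28438: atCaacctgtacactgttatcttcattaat

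Counts were low on both sides of the pairs of mt-Co2, mt-Atp6, mt-Co3 and mt-Nd4l, whose copies were identical over the bases aligned. mt-Co2 had 458 counts over the 8 libraries and Gm28661 729. mt-Atp6 had 381 and Gm10925 618. In both pairs the nuclear pseudogene had more counts than the mitochondrial gene in 8 of 8 libraries. mt-Co3 had 1783 counts and Gm28437 541. For mt-Nd3, with its 1 difference, the mitochondrial gene had 13534 counts against 380 of Gm28438, and for mt-Nd4l 1062 against 49 of Gm10222. Where the copy on chromosome 1 covers only part of the gene the mitochondrial counts were far higher, with 302915 for mt-Nd4 against 66 for Gm28439 and 843698 for mt-Co1 against 387 for Gm29216. On chromosome 2, Gm13341 had 387 counts and Gm13340, a copy of mt-Co1 identical to it at 97.6% of 1545 bases, had 107. The 7 copies on chromosome 1 together had 2770 counts, at most 0.00112% of the counts of a library. The counting of reads that fit several places was not given in the sources used here, and the part of the copies in the low counts was not tested.

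**Figure D3:**
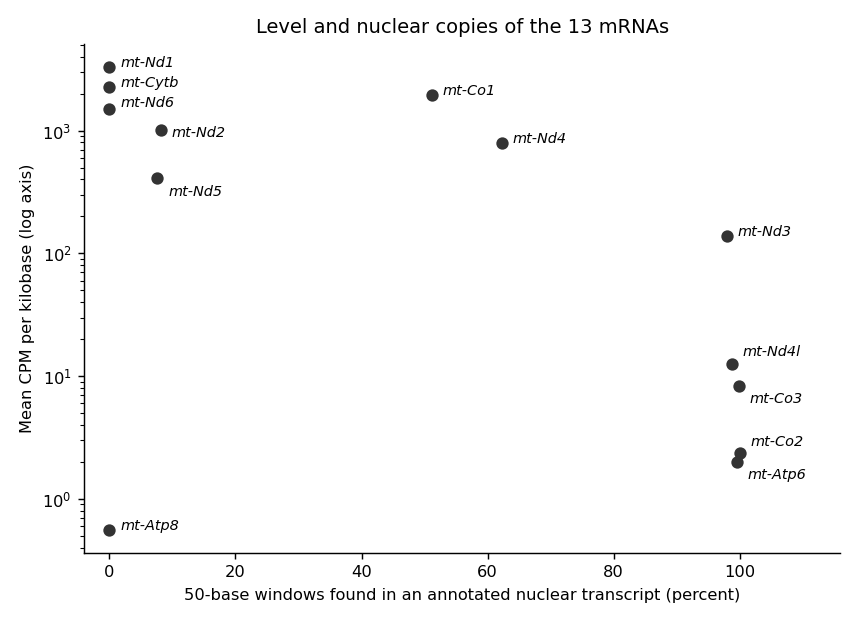
Mean level of the 13 mRNAs over 8 libraries (log axis) against the percent of their 50-base windows that were found in an annotated nuclear transcript. The 5 mRNAs with at least 97.99% matched lie at 139 or less, the others with a matched percent of 62.2% or less lie at 414 or more, and mt-Atp8 is the exception at 0% and 0.561.

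The order of the high mRNAs was also computed per kilobase of windows with no match in an annotated nuclear transcript. This was done for the 7 genes with at least 200 such windows. All counts of a gene were kept and only the divisor changed, as if matched windows gave no counts. That is an assumption, and mt-Nd3, with 97.99% of its windows matched, had 13534 counts. The values below are therefore not levels measured in unmatched bases. mt-Co1 then stood first at 4080 ± 2004 CPM per kilobase of unmatched 50-base windows, above mt-Nd1 (3464 ± 714) in 5 of 8 libraries. mt-Nd4 rose to 2181 ± 567 and place 4, above mt-Nd2 in 8 of 8 libraries. With 100-base windows mt-Nd1 kept place 1 (3666 ± 756) and mt-Co1 was second (2982 ± 1465). The place of mt-Co1 against mt-Nd1 thus depends on the length used, and the read length was not given in the sources used here.

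Among the 22 tRNA genes, 59 to 75 bases long, counts over the 8 libraries ranged from 0 to 5214 with a median of 579. They made up between 0.00950% and 0.0157% of all counts, and at most 0.0124% without male replicate 2. The 4 with the most counts were mt-Tn (asparagine, 5214), mt-Te (glutamate, 5119), mt-Tl2 (leucine, 5072) and mt-Tp (proline, 4155). Of these, mt-Tn, mt-Te and mt-Tp lie on the minus strand, and the 8 minus-strand tRNA genes held 57.4% of all tRNA counts. The strand setting of the counting was not given, so reads of the opposite strand may be among them. Whether the counts of tRNA genes come from tRNAs already cut out or from precursors was not tested. mt-Te and mt-Tp lie on either side of mt-Cytb and mt-Tt, and mt-Te adjoins mt-Nd6.

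A few tRNA genes had almost no counts. mt-Td (aspartate) and mt-Tk (lysine) had 0 of 277856671 counts in all libraries together, which allows a counted level of up to 0.0108 CPM (3 counts, counting error only). It sets no bound on reads that the counting may have dropped because they fit several places. mt-Ts1 (serine) had 1 count, in male replicate 2, and mt-Tm (methionine) had 65, with 0 in female replicate 1. mt-Td and mt-Tk lie on either side of mt-Co2, and mt-Ts1 lies between mt-Co1 and mt-Td, all inside the stretch copied on chromosome 1. mt-Tg (glycine, 964 counts) and mt-Tr (arginine, 528 counts) lie in the same stretch, so not every tRNA gene there was empty. The genes with the most and with no counts are shown whole, 5′ to 3′ on their own strand, because they are the extremes of the group (mt-Tn at MT:5089-5159 and mt-Te at MT:14071-14139, minus strand, and mt-Td at MT:6942-7011 and mt-Tk at MT:7700-7764, plus strand):
mt-Tn: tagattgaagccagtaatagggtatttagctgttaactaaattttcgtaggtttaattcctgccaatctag
mt-Te: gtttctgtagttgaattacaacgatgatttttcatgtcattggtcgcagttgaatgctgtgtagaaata
mt-Td: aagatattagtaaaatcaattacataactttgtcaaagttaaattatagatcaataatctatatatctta
mt-Tk: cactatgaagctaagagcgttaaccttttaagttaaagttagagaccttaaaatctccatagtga

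The counts of several tRNA genes ran against those of the high mRNAs over the libraries. In CPM, mt-Te was 17.0, 18.9, 15.3 and 14.4 in the female libraries and 15.5, 31.7, 12.4 and 18.0 in the male ones, so that male replicate 2, lowest for mt-Nd1, mt-Cytb and mt-Co1, was highest here. Of the 29 genes with over 80 counts, male replicate 2 was the lowest library for 6 of 12 mRNAs and the highest for 10 of 17 tRNAs. Female replicate 4 was the highest for 5 of 12 mRNAs and the lowest for 7 of 17 tRNAs. tRNAs accordingly made up 2.22% of the mitochondrial counts in male replicate 2 and 0.571% in female replicate 4. Annotated small noncoding RNAs of the nucleus, a group added after seeing the data, also took their highest share in male replicate 2, 0.609%, where the female libraries reached at most 0.215%. The part of that in the tRNA values was not tested.

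**Figure D4:**
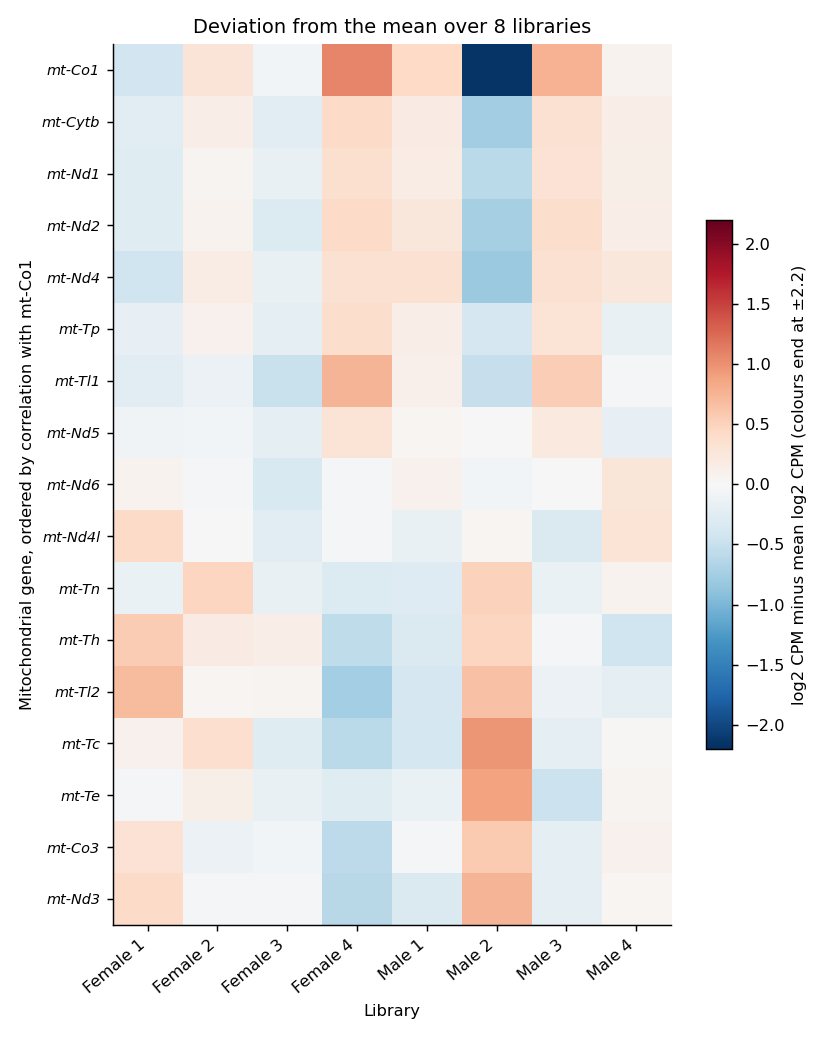
Deviation of log2 CPM from the gene's mean over 8 libraries, for the 17 mitochondrial genes with at least 1000 counts (rows, ordered by their correlation with mt-Co1) in each library (columns). The genes from mt-Co1 to mt-Tl1 are blue in male replicate 2 and red in female replicate 4, and those from mt-Tl2 to mt-Nd3 show the reverse.

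Some members went with mt-Co1 over the libraries, some went against it and others did neither. Over the 8 libraries, as a description with no p, Pearson's r of log2 CPM with mt-Co1 was 0.96 for mt-Cytb, 0.95 for mt-Nd1, 0.94 for mt-Nd2 and 0.93 for mt-Nd4, with Spearman's rho of 0.95 to 0.98. Among the tRNAs it was 0.86 for mt-Tp (rho 0.98), next to mt-Tt, and 0.78 for mt-Tl1 (rho 0.95), which adjoins mt-Nd1. It was negative for mt-Nd3 (-0.94), mt-Co3 (-0.91), mt-Te (-0.91), mt-Tc (-0.87) and mt-Tl2 (-0.81), and near 0 for mt-Nd6 (0.11). In the order of these 6 genes rho was -0.95, -0.88, -0.69, -0.71, -0.86 and 0.19. Without male replicate 2 these values of r were 0.92, 0.94, 0.91 and 0.84 for the 4 mRNAs, 0.95 for mt-Tp, 0.90 for mt-Tl1, -0.93 for mt-Nd3, -0.91 for mt-Co3, -0.60 for mt-Te, -0.59 for mt-Tc, -0.87 for mt-Tl2 and 0.0035 for mt-Nd6. Between these groups lay mt-Nd5 (0.44, and 0.87 without male replicate 2), mt-Nd4l (-0.33 and -0.56), mt-Tn (-0.64 and -0.24) and mt-Th (-0.70 with and without it). All points share library and depth, and levels within a library are parts of a common total. mt-Nd3 was 62.2, 45.02, 45.5 and 30.7 CPM in the female libraries and 37.5, 78.3, 40.5 and 48.2 CPM in the male ones, highest where mt-Co1 was lowest.

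No mitochondrial gene was called different between the sexes. The comparison male minus female was fitted over all genes with edgeR's quasi-likelihood test, and 29 of the 35 genes passed its filter on low counts. mt-Atp8 and the tRNA genes mt-Tm, mt-Ty, mt-Ts1, mt-Td and mt-Tk did not pass. Of the 29, 0 were called at an adjusted p below 0.05, where 0.0366% of all 16377 genes tested were called, and 0 had an unadjusted p below 0.05, where 2.24% of all genes had one. DESeq2 and limma-voom also called 0, and 0 had an unadjusted p below 0.05 with either. For each of the 29 genes the female and male ranges overlapped. The share of all genes whose ranges overlap was not computed, so this is a description only.

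The estimated differences were small for the well counted genes. On the log2 scale, male minus female, mt-Nd1 differed by 0.05 ± 0.17 (SE, adjusted p = 0.999), with a mean level of 3111 ± 599 CPM in females (SD, n = 4) against 3180 ± 787 CPM in males (SD, n = 4). mt-Nd6 had the smallest error and a difference of 0.19 ± 0.12 (95% interval -0.08 to 0.46, adjusted p = 0.999). mt-Nd5 gave 0.06 ± 0.13, mt-Cytb 0.00 ± 0.20, mt-Nd2 0.08 ± 0.21 and mt-Nd4 0.10 ± 0.22. mt-Co1 had the widest error of the mRNAs, with -0.22 ± 0.49 and an interval from -1.33 to 0.90. Among the 12 mRNAs tested, 9 were nominally higher and 3 lower in males, with a median of 0.07, and among the 17 tRNAs 12 were higher and 5 lower, with a median of 0.13. Over all genes tested 8666 were higher and 7711 lower, with a median of 0.01. Without male replicate 2 the split of the tRNAs turned to 4 higher and 13 lower (median -0.22), and that of the mRNAs was again 9 and 3. Without this library the estimate for mt-Co1 turned to 0.11, that for mt-Nd3 to -0.16 and that for mt-Te to -0.13, and without female replicate 4 that for mt-Co1 turned to 0.10. With the level of foregut markers as a covariate mt-Co1 moved to -0.95, at an unadjusted p below 0.05 that 15.1% of all genes reached in that fit, and it was not called.

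Nuclear genes that copy, transcribe and process mitochondrial nucleic acids, or that encode the partners of its products, were read from the same fit. Of 20 genes for transcription and replication of the mitochondrial genome, 0 were called, with 4 nominally higher and 16 lower in males and a median log2 fold change of -0.08. Lonp1, a matrix protease, had 154 ± 14.2 CPM (SD, n = 8), and Tfam, which packages the mitochondrial genome and starts its transcription, 72.3 ± 6.63 CPM. Its level was 77.1 ± 3.04 CPM in females (SD, n = 4) against 67.4 ± 5.50 CPM in males (SD, n = 4). The log2 difference for Tfam was -0.16 ± 0.07, with edgeR's p at 0.0461 before and 0.999 after adjustment. No other gene of these lists had an unadjusted p below 0.05 with edgeR, where 2.24% of all genes tested had one.

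None of the 29 genes tested for processing and stability of mitochondrial RNA was called, with 14 higher and 15 lower and a median of -0.0038. The 2 with the highest levels were Lrpprc, which stabilises mitochondrial mRNAs (128 ± 17.0 CPM), and Grsf1, an RNA-binding protein of mitochondrial RNA granules (125 ± 25.3 CPM). Of 78 mitoribosomal proteins 0 were called (45 higher, 33 lower, median 0.03), and Mrpl12 (353 ± 63.4 CPM) and Mrpl42 (162 ± 9.41 CPM) had the highest levels. Of 81 nuclear subunits of the respiratory chain and ATP synthase 0 were called (60 higher, 21 lower, median 0.12), led by Atp5b (2655 ± 208 CPM) and Atp5a1 (1753 ± 208 CPM), the catalytic-head subunits of ATP synthase. Over the 4 lists, 0 of 208 genes were called by edgeR or DESeq2, where edgeR called 0.0366% of all genes tested. With either, 1 of the 208 had an unadjusted p below 0.05. Of all genes with a p-value, 2.24% had one below 0.05 with edgeR and 1.93% with DESeq2.

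These counts moved with single libraries, as leaving them out showed in a comparison added after seeing the data. Without male replicate 2, 12 of the 81 nuclear respiratory subunits were higher and 69 lower in males (median -0.06), 13 of the 78 mitoribosomal proteins were higher and 65 lower (median -0.06), and 9 of the 20 genes for transcription and replication were higher and 11 lower (median -0.0092). The genes for RNA processing then stood at 17 higher and 12 lower (median 0.0034), and all genes tested at 8191 higher and 8142 lower. Without female replicate 4 the mitoribosomal proteins also turned, to 32 higher and 46 lower. The respiratory subunits then stood at 49 higher and 32 lower with a median of 0.02. All genes tested in that fit stood at 9072 higher and 7341 lower, also with a median of 0.02.

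The mitochondrial share varied with several other features of the libraries. These relations are given as descriptions over 8 libraries, with no p, and most of the features are shares of the same totals. The share went down as the summed share of nuclear respiratory subunits went up, from 2.47% in female replicate 4 to 3.14% in male replicate 2 (r = -0.90, rho = -0.81, and r = -0.66 without the 2 libraries farthest from the median). With mitoribosomal proteins, 0.537% to 0.677% of counts, r was -0.96, rho -0.98 and r without 2 libraries -0.88. With the share of counts in genes longer than 4 kb, 40.1% to 45.2%, r was 0.94, rho 0.93 and r without 2 libraries 0.82. Thus libraries with more mitochondrial counts had more counts in long genes and fewer in these 2 groups of nuclear mitochondrial genes.

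The groups of nuclear genes were not alike within themselves. Of 81 nuclear respiratory subunits, 59 had a negative and 22 a positive r with the mitochondrial share (median -0.85), and of 78 mitoribosomal proteins 52 were negative and 26 positive (median -0.78). Atp5b and Atp5a1, the highest of the first group, were positive at 0.92 and 0.95. Of 29 genes for RNA processing 23 were positive (median 0.75), and of 20 genes for transcription and replication 17 (median 0.72). Over all 16348 nuclear genes tested, 10687 were positive, with a median of 0.48. Without male replicate 2 the medians were -0.81 for respiratory subunits, -0.78 for mitoribosomal proteins, 0.50 for RNA processing, 0.51 for transcription and replication and 0.29 over all nuclear genes. The groups also differed in gene length. The median length was 1.53 kb for respiratory subunits, 2.07 kb for mitoribosomal proteins, 3.27 kb and 3.42 kb for RNA processing and for transcription and replication, and 3.71 kb over all nuclear genes tested. The part of length in these relations was not tested.

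Relations with markers of cell types differed in strength. With erythroid markers (0.472% to 1.24% of counts) r was 0.10 and rho 0.36. With sarcomere markers (5.25% to 7.15%) r was -0.68, rho -0.50 and r without the 2 farthest libraries 0.06, so this relation rests on male replicate 2 and female replicate 4. With the mean level of foregut markers r was -0.73 and rho -0.71 (r = -0.52 without 2 libraries), and with hepatic and yolk sac markers r was -0.72 and rho -0.86 (r = -0.40 without 2 libraries). With total counts r was 0.09, rho 0.10 and, without the 2 deepest libraries, r was -0.67. With the 10 nuclear genes of most counts r was -0.33 and rho -0.26 (r = -0.55 without 2 libraries).

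Further features were added after seeing the data. With endothelial markers, 0.0394% to 0.0695% of counts, r was 0.98, rho 0.95 and r without 2 libraries 0.95. With cytosolic ribosomal proteins, 6.84% to 11.1% of counts, r was -0.97, rho -0.95 and r without 2 libraries -0.93. With small noncoding RNAs of the nucleus, 0.0456% to 0.609% of counts, r was -0.77, rho -0.86 and r without 2 libraries only -0.28. The order of the 8 libraries by mitochondrial share was the exact reverse of their order on the first principal component of the nuclear genes (r = -0.97, rho = -1.0), which holds 54.6% of their variance and whose sign is arbitrary. Male replicate 2 and female replicate 4 were the 2 ends of this order. From the highest share down, the libraries were female replicate 4, male replicates 3 and 1, female replicate 2, male replicate 4, female replicates 3 and 1 and male replicate 2, so that either part of the order held both sexes. In these bulk samples fewer cells of a type and less RNA per cell cannot be told apart, and the part of cell makeup, RNA quality or depth in the mitochondrial share was not tested.

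**Figure D5:**
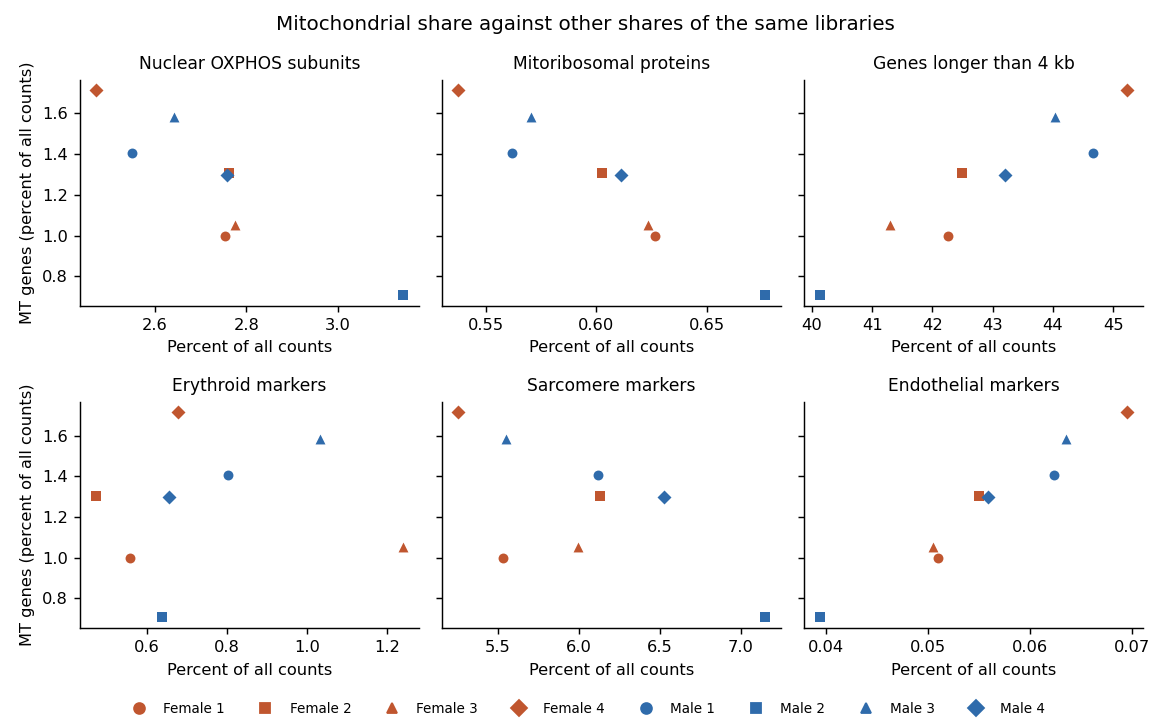
Mitochondrial share of each library (y axis, percent of all counts) against 6 other shares of the same libraries (x axes, percent of all counts), 1 point per library with females in orange and males in blue. The share falls with respiratory subunits and mitoribosomal proteins, rises with long genes and endothelial markers, and shows no steady course with erythroid markers.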

How the data were processed

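RNA of E9.5 hearts was made into libraries with an Illumina TruSeq RNA kit, per the labels' protocols, which do not say whether poly(A) RNA was selected. Per the submitters' processing notes, the authors' tools were featureCounts (Subread 1.5.2), STAR 2.5.2b and Trimmomatic 0.36, and the build was GRCm38 (mm10). The authors deposited whole-number counts per gene, 1 table per library, and a series table with the same counts in every cell. A further table the authors deposited holds a normalized signal, the counts divided by 1 factor per library for the 16460 genes with a total above 80, and was used only as an alternative for the share. Annotation release, strand setting and multi-mapping treatment were not given in the sources used here.

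CPM (counts per 1000000) are relative to the total of all 49315 genes. The test was the robust quasi-likelihood test of edgeR 4.0.16 under R 4.3.3 (genes kept by filterByExpr at a minimum of 10 counts, TMM scaling, 2-sided, Benjamini-Hochberg over 16377 genes, threshold 0.05), checked on simulated data. DESeq2 1.42.0 and limma 3.58.1 were alternatives, beside other scalings, filters, covariates and leaving out each library. Python 3.11.15 was used otherwise. Windows were searched in the transcripts of GENCODE M21 (GRCm38), since no genome was at hand, and positions are those of the deposited tables. Sequences are from those transcripts. Gene symbols were found for 48970 identifiers. Library pairs differed by more than sampling noise, so none was counted as a repeat.

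All 13 mRNAs were named, as were the 4 tRNAs with most counts, tRNAs at 0 in any library, the 2 nuclear list genes with the highest mean CPM per list, and nuclear copies with at least 100 counts; other genes named by their position or course over libraries were chosen after their values were seen. The members and lists were chosen with earlier results of these data known. Intervals of log2 differences are 95% intervals from the SE and the degrees of freedom of edgeR's test.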

Additional observations from a re-analysis of the deposited data

Results flagged for a closer look

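Within each sex, the highest or lowest of the 4 libraries was compared with the others by Dixon's ratio, for the mitochondrial share, the tRNA share, the named genes, the ratio of mt-Co1 to mt-Nd1 and the copies on chromosome 1. Of 42 groups, 4 had a library farther from the rest than the critical value for groups of 4 allows, and chance gives about 1 in 20. mt-Nd4 had 603.2 CPM in male replicate 2, against 1257 to 1333 in the other males. The tRNA share of all counts was 0.01566% in male replicate 2, against 0.00950% to 0.0104%. mt-Atp8 had 0.3325 CPM in female replicate 4, against 0.0807 to 0.0996 in the other females, on few counts. mt-Tn had 24.62 CPM in female replicate 2, against 14.4 to 16.0 in the other females.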

How the results depend on the processing

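The mean mitochondrial share of 1.26% moved by less than its SD under every alternative run, and leaving out each library in turn gave 1.19% to 1.34%. The difference male minus female, -0.02 percentage points, ranged from -0.13 to 0.16 in that way. The alternative without the rRNA genes could not be run, since they are not among the genes analysed. The count of mitochondrial genes called stayed at 0 under all alternatives, and so did that of the 208 nuclear list genes. At an unadjusted p below 0.05 it was 5 of 29 with a foregut covariate, where 15.1% of all genes and 28 of the 208 list genes had one, 4 of 29 without male replicate 2 (3.42% of all genes) and 1 each without female replicate 4 (2.5%) and with library size alone (1.8%). With a replicate block 0 of the 29 mitochondrial genes were called, beside 5 of all 16377 genes tested, and mt-Cytb turned to -0.010. Same-numbered libraries did not deviate together (correlations of -0.42 to -0.01), so the numbers were not read as pairs.

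All counts of each gene were also divided by its unmatched windows alone. Per kilobase of unmatched 50-base windows the places were 2 for mt-Nd1, 3 for mt-Cytb and 1 for mt-Co1. They were 5 for mt-Nd6, 6 for mt-Nd2 and 4 for mt-Nd4. With 100-base windows they were 3 for mt-Cytb, 5 for mt-Nd6, 6 for mt-Nd2 and 4 for mt-Nd4. Leaving out libraries moved no place.

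Without the 2 farthest libraries, r with the share was -0.67 for total counts, 0.29 for erythroid, 0.055 for sarcomere and -0.52 for foregut markers, -0.40 for hepatic markers, -0.66 for nuclear respiratory subunits, 0.82 for genes longer than 4 kb and -0.55 for the 10 nuclear genes of most counts. Leaving out each library gave -0.33 to 0.32 for total counts, -0.083 to 0.47 for erythroid markers, -0.88 to -0.36 for sarcomere markers and -0.71 to -0.081 for the 10 nuclear genes. Among the features added after seeing the data, small noncoding RNAs moved to -0.28 without the 2 farthest libraries. Leaving out each library gave -0.89 to -0.54 for them.

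Of 272 fold changes of single genes under alternatives, 37 changed sign, none of them past the threshold. With the foregut covariate these were mt-Nd1 (-0.12), mt-Nd2 (-0.14), mt-Nd4l (0.10), mt-Nd4 (-0.16) and mt-Cytb (-0.21). The same covariate moved mt-Co1 from -0.22 to -0.95, mt-Nd3 from 0.23 to 0.46 and mt-Co3 from 0.29 to 0.50 with no change of sign, all with an unadjusted p below 0.05 and none called. mt-Cytb was -0.017 with library size alone, -0.024 with no filter and -0.0020 with DESeq2, and mt-Tl2 was -0.055 with library size alone and -0.012 with no filter. Leaving out each library gave -0.031 to 0.17 for mt-Nd1, -0.020 to 0.23 for mt-Nd2, -0.51 to 0.11 for mt-Co1, -0.069 to 0.20 for mt-Co2, -0.16 to 0.42 for mt-Nd3, -0.13 to 0.13 for mt-Nd4l, -0.014 to 0.28 for mt-Nd4, -0.094 to 0.15 for mt-Cytb, -0.14 to 0.35 for mt-Tn, -0.13 to 0.51 for mt-Te, -0.36 to 0.29 for mt-Tl2 and -0.10 to 0.091 for mt-Tp. The cause of these changes was not tested.

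Values of mt-Atp8 and of the tRNA genes with few counts are imprecise, and why these counts are low was not tested.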
